A study of Mus musculus with 8 samples.

Results

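Cells make cholesterol and fatty acids through enzymes whose genes are controlled by the sterol regulatory element-binding proteins (SREBPs). The 30 genes described here are listed members of this SREBP pathway, chosen by gene symbol, and they are 30 of the 55401 genes in the expression tables. They comprise 18 enzymes of sterol synthesis, 6 regulators and carriers, and 6 enzymes of fatty acid synthesis. All 30 were found in the tables and all 30 were abundant enough to test.

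RNA-seq compared AML12 cells that had been exposed to pulsed extremely low-frequency weak magnetic fields (ELF-WMF) with control cells, to ask how the exposure changes gene expression. AML12 is a hepatocyte line established from the liver of a mouse transgenic for human transforming growth factor alpha, so every sample is the same immortal line. There were 4 control dishes and 4 ELF-WMF dishes. ELF-WMF dishes received 4 ms pulses with a peak of 100 mG for 1 h, at frequencies that stepped from 1 to 8 Hz and then started again. Control dishes received no pulses and did not share an incubator with the exposed ones, so the incubator and the exposure cannot be told apart. All dishes held DMEM/F-12 medium with fetal bovine serum, dexamethasone, insulin, transferrin and sodium selenite. Because all dishes came from 1 batch of cells, the p-values measure only the spread between these dishes.

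The unit is TPM, a transcript abundance in which read numbers are corrected for gene length and every dish is brought to the same total. TPM keeps no sequencing depth, so depth is unknown here and no counting error can be given. A gene was tested where 4 or more of the 8 dishes reached 1 TPM, which 12122 genes did. Fold changes are differences of log2(TPM + 1), ELF-WMF minus control, from limma. This scale understates the change of genes with low TPM. In bulk samples fewer cells of a type and less RNA per cell cannot be told apart.

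The dishes expressed epithelial keratins and hepatocyte transcription factors but lacked several products of a mature hepatocyte. Of 14 hepatocyte markers, 11 had a TPM of at least 1 in all 8 dishes, led by Krt8 (2206 to 2431 TPM), with Hnf4a, a hepatocyte transcription factor, at 180.3 to 218 TPM and Alb, which encodes albumin, at 46.1 to 58.2 TPM. Tat, Cps1 and Apoa2 were near 0, at no more than 0.24 TPM in any dish. The summed TPM of the hepatocyte list was 5702, 5762, 5495 and 5720 in the control dishes and 5936, 6070, 5876 and 5856 in the ELF-WMF dishes. These sums did not overlap, and most of each sum came from Krt8 and Krt18, the only genes of the list that were higher in every ELF-WMF dish than in every control dish. Other hepatocyte genes had lower means after exposure, Alb (55.1 and 49.7 TPM), Cebpa (9.21 and 7.94 TPM), Apoa1 (4.54 and 3.77 TPM) and Ttr (358 and 348 TPM), and none of these passed the test. After median-of-ratios scaling the sums and both keratins overlapped, after rescaling without the mitochondrial genes only the sums and Krt18 stayed higher in every ELF-WMF dish, and under both Alb was lower in every ELF-WMF dish (log2 fold change -0.15 on the deposited values and -0.18 under both). These scalings of the markers were added after their values had been seen.

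Markers of endothelial cells, macrophages, stellate cells and hepatoblasts were mostly absent, and those of cholangiocytes were mostly present. All 5 endothelial markers were under 1 TPM in every dish, with sums from 0.01 to 0.09 TPM and Pecam1 the most abundant. Of 5 macrophage markers, Cd68 was at 1 TPM or more in every dish and 4 were under 1 TPM in every dish, with sums of at most 2.34 TPM. Of 8 stellate cell and fibroblast markers, Vim was at 1304 to 1509 TPM (means 1353 TPM in control and 1461 TPM in ELF-WMF dishes, with overlap, log2 fold change 0.11, or 0.08 under both other scalings described below, limma adjusted p = 0.169) and 6 were under 1 TPM in every dish, among them Lrat, which was listed at 0 throughout. Of 4 hepatoblast markers 3 were under 1 TPM in every dish, and Afp, the most abundant, was at 0.48 to 1.33 TPM. Of 5 cholangiocyte markers 4 were at 1 TPM or more in every dish, the exception being Epcam (up to 0.13 TPM), and the most abundant was Krt19, at 1101 to 1244 TPM.

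A shift outside the pathway has to be read beside every result below. The 37 genes of the mitochondrial genome held 8.72%, 8.69%, 9.42% and 8.93% of TPM in the control dishes and 6.96%, 5.99%, 7.69% and 7.52% in the ELF-WMF dishes. Every ELF-WMF dish was below every control dish. Since TPM has a fixed total, a lower share of these genes raises the TPM of all others, and the median log2 fold change of all 12122 tested genes was 0.03. After median-of-ratios scaling that median was -0.001, and after rescaling TPM without the mitochondrial genes it was -0.002. Fold changes of the pathway genes are given under these scalings too, values of single dishes are those deposited, and the part of the mitochondrial share in the results was not tested further.

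SREBPs are made as membrane proteins of the endoplasmic reticulum, where Scap escorts them and Insig proteins hold the complex back when sterols are plentiful. When sterols are scarce the complex moves to the Golgi, the SREBP is cut free by proteases, and its released end enters the nucleus and binds sterol regulatory elements and E-boxes in target promoters, usually beside factors that bind CCAAT and GC boxes. Srebf2 products mainly drive cholesterol synthesis, and the SREBP-1c product of Srebf1 drives fatty acid synthesis in liver in response to insulin.

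Promoter sequences are shown for Hmgcs1 and Srebf2, whose dishes did not overlap between conditions on the deposited values. Their promoters hold a sterol regulatory element (Hmgcs1) or a shorter form of it (Srebf2). Insig1, which holds an E-box, and Fasn, the central fatty acid enzyme, are shown too. This choice used both the dishes and the motifs, so it cannot relate the element to the differences. Msmo1, whose dishes overlapped, also holds the shorter form, and Tm7sf2, lower in every ELF-WMF dish, holds neither form. RefSeq promoters (GRCm38.p6), each from 250 bases before to 50 after a start site, were found for 24 of the 30 genes, in 32 windows. There was no entry for Fdps, Fdft1, Sqle, Stard4, Scd1 and Scd2. The stretches below lie upstream of the start and contain no exon annotated in GENCODE M21. They run 5′ to 3′ on the strand of the gene, and capitals mark the sterol regulatory element in either form, the E-box and CCAAT on either strand (CCAAT reads ATTGG on the other).
Hmgcs1, chr13:119690101-119690350, plus strand: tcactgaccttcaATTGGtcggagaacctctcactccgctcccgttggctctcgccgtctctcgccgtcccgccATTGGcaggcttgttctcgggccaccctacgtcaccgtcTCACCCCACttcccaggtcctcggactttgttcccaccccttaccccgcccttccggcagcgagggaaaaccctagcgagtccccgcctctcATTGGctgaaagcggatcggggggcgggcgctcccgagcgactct
Srebf2, chr15:82147019-82147180, plus strand: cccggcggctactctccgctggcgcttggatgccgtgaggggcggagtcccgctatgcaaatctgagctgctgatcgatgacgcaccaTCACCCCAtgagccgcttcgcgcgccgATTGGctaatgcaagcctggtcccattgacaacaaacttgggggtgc
Insig1, chr5:28071162-28071362, plus strand: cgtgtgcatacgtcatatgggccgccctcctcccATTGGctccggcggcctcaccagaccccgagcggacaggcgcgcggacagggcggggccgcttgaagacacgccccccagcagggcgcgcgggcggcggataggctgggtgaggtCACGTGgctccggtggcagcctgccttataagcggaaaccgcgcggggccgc
Fasn, chr11:120824548-120824797, minus strand: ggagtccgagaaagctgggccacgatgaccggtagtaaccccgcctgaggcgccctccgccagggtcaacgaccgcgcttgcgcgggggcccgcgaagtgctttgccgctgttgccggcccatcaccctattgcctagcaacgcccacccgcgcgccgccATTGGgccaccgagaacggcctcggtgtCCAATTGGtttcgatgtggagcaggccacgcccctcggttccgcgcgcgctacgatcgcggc

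The motifs were searched on both strands of each whole 300-base window. The sterol regulatory element was spelled TCACNCCAC, and 1 of 24 genes held it, Hmgcs1, at 137 bases before the start. It was found in 1.24% of all 32851 mouse promoters and in 1.47% of the 9067 tested genes with a promoter entry. The shorter form TCACNCCA, which the longer one contains and which was added after the sequences had been seen, was found in Hmgcs1, Msmo1 and Srebf2 (3 of 24 genes), and in 4.36% of all promoters and 4.48% of tested genes. In Srebf2 it stood 162 bases before the start. The E-box CACGTG was found in Dhcr7, Hsd17b7, Insig1, Sc5d and Scap (5 of 24 genes), beside 12.1% of tested genes, and in 6 of the 32 windows (18.8%), beside 7.15% of all promoters. Overlapping windows of Scap held the same E-box, which is counted once for each window.

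Most of these promoters held CCAAT and the GC box, spelled GGGCGG here. The motif CCAAT was found in 20 of 24 genes, beside 43.9% of tested genes, each counted when any of its windows held it. By single windows it was found in 21 of 32 (65.6%), beside 37.4% of all promoters. The GC box was also found in 20 of 24 genes, beside 70.2% of tested genes, and in 24 of 32 windows (75%), beside 35.7% of all promoters. The upstream stretch of Hmgcs1 held 3 copies of CCAAT, and that of Fasn held 3, of which 2 overlap on opposite strands. A match is only a run of letters, and its absence says only that these letters are not in the window.

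The 30 genes lie on 15 chromosomes, with 4 on chromosome 11 and 3 each on chromosomes 3, 5 and 19. Scd1 and Scd2 are neighbours on chromosome 19.

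Every gene of the pathway was expressed, and the levels spanned a wide range. Scd2, a stearoyl-CoA desaturase, stood far above the rest with a mean of 753 TPM over the 8 dishes, higher than 98.5% of tested genes. Next came the sterol enzymes Ebp (261 TPM), Fdps (234 TPM), Msmo1 (174 TPM) and Idi1 (151 TPM), then Srebf2 (147 TPM), Fasn (144 TPM) and Acly (140 TPM). Neighbours in this order such as Idi1, Srebf2, Fasn and Acly overlapped from dish to dish. The lowest were Elovl6 (25.9 TPM), Mvd (27.3 TPM) and Hsd17b7 (27.3 TPM), and even Elovl6 was higher than 54.7% of tested genes. Together the 30 genes summed to 3177 ± 28 TPM in the control dishes and 3267 ± 84 TPM in the ELF-WMF dishes (SD, n = 4 culture dishes each), and the conditions overlapped.

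**Figure D1:**
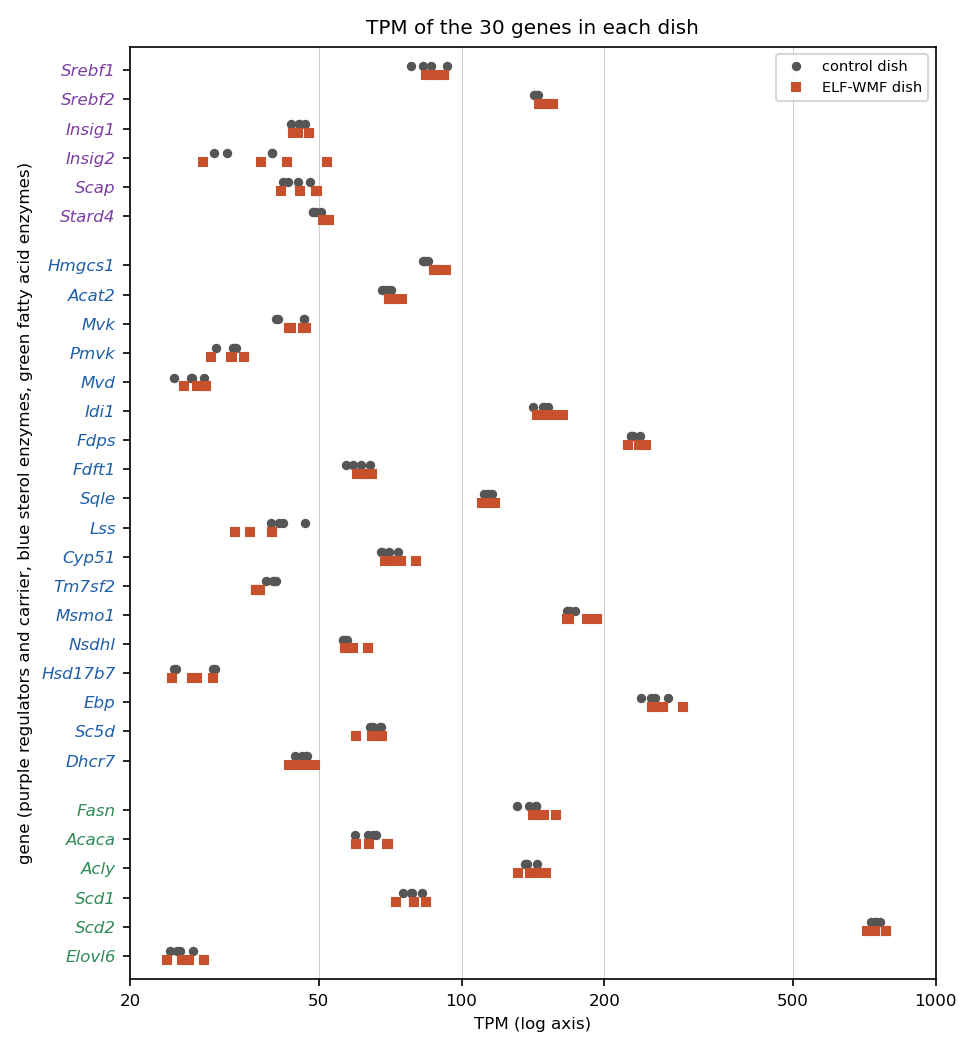
TPM of each of the 30 genes in the 4 control dishes (grey circles) and 4 ELF-WMF dishes (orange squares), on a log axis, grouped as regulators and carrier (purple names), sterol enzymes (blue) and fatty acid enzymes (green). Scd2 stands apart near 753 TPM, most genes lie between 25 and 261 TPM, and for most genes the dishes of both conditions overlap.

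The level of most of these genes differed little between the control dishes and the dishes exposed for 1 h. None of the 30 genes passed the threshold, an adjusted p of 0.05 by limma with Benjamini-Hochberg adjustment over 12122 genes, and the smallest adjusted p among them was 0.142, for Hmgcs1. No gene at all passed it (0% called), while 1894 of the 12122 had an unadjusted p under 0.05. Without control replicate 2 the number past the threshold was 2 and without control replicate 3 it was 1, and it was also 1 after median-of-ratios scaling and with only genes of at least 1 TPM in every dish. None of the 30 was among them.

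In 3 of the 30 genes, Hmgcs1, Srebf2 and Stard4, all 4 ELF-WMF dishes lay above all 4 control dishes. That share of 10% stands beside 8.01% of all tested genes. In 1 of the 30, Tm7sf2, all ELF-WMF dishes lay below, a share of 3.33% beside 1.86% of all tested genes. By unadjusted p under 0.05 the pathway had 4 higher genes, 13.3% beside 12% of all tested genes, and 2 lower genes, 6.67% beside 3.65%. The shares of higher genes are close to those of the genes in general. On the deposited values the shares of lower genes are larger than those in general but rest on 1 and 2 genes. Without control replicate 3, Lss joined Tm7sf2 among the lower genes.

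The scaling decided part of this count. After median-of-ratios scaling 1 gene stayed above (Srebf2) and 2 lay below (Lss and Tm7sf2), and after rescaling without the mitochondrial genes 1 stayed above (Hmgcs1) and the same 2 lay below. Over all tested genes the numbers above and below were 971 and 225 on the deposited values, 461 and 463 (3.80% and 3.82%) after median-of-ratios scaling, and 464 and 393 (3.83% and 3.25%) after rescaling. Of the genes with an unadjusted p under 0.05, 76.6% were higher on the deposited values, 47.1% after median-of-ratios scaling and 50.7% after rescaling. Among the 30 genes, 3 had such a p by limma under either other scaling, Hmgcs1 higher and Lss and Tm7sf2 lower. All tested genes with such a p numbered 1428 of 12122 after median-of-ratios scaling (673 higher and 755 lower) and 1368 of 12107 after rescaling (693 higher and 675 lower). On the deposited values only 443 of 12122 were lower.

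The median log2 fold change of the 30 genes was 0.05, beside 0.03 for all tested genes. It was 0.02 under both other scalings, beside -0.001 for all tested genes after median-of-ratios scaling and -0.002 after rescaling. Of the 30 genes, 24 had a positive and 6 a negative fold change, or 80.0% positive beside 63.7% of all tested genes, and 20 were positive after median-of-ratios scaling and 19 after rescaling. The 95% confidence intervals were narrow. On the deposited values the whole interval lay between -0.2 and 0.2 for 28 of the 30 genes. The outer bounds of these were -0.19 and 0.20, or 0.878-fold and 1.15-fold. The exceptions were Lss (-0.34 to -0.03) and Insig2 (-0.21 to 0.53). In other fits some further intervals went slightly past these limits, such as Hsd17b7 after rescaling (-0.22 to 0.15).

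**Figure D2:**
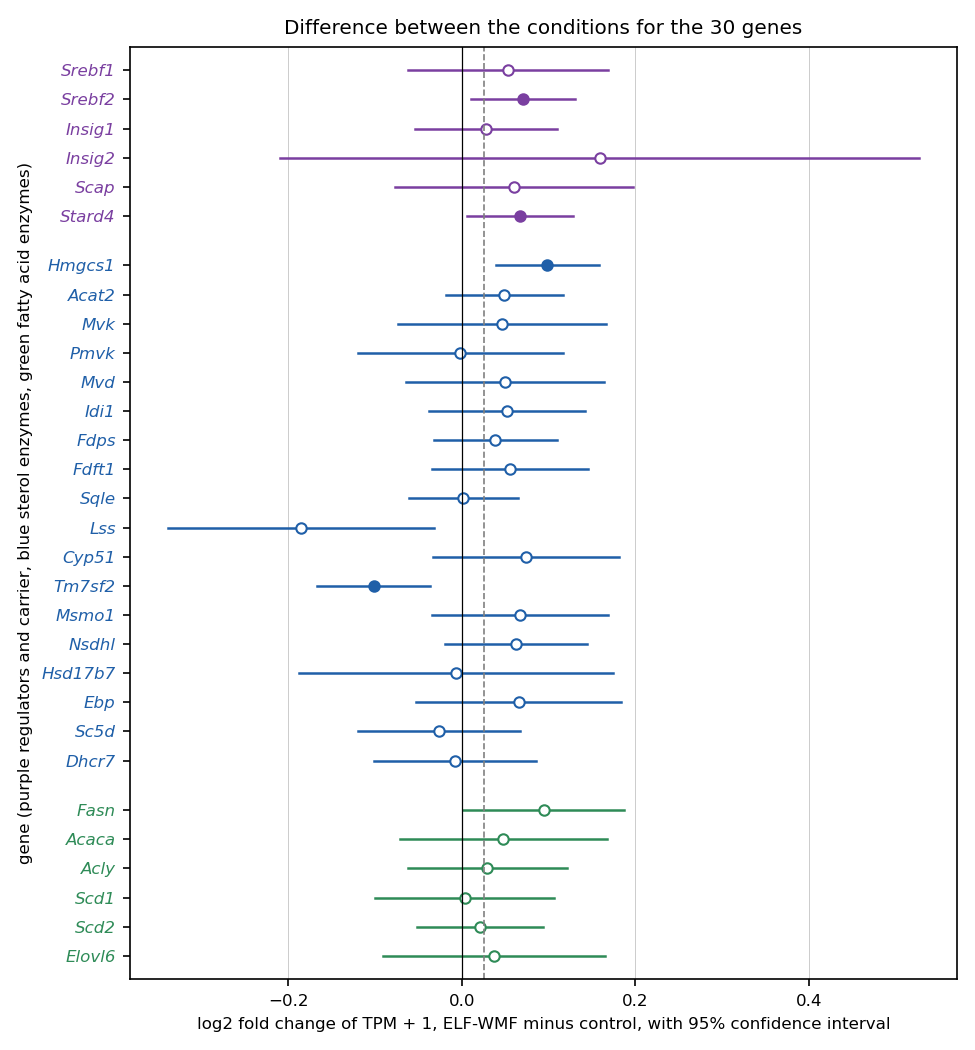
Log2 fold change of TPM + 1, ELF-WMF minus control, with its 95% confidence interval from limma (4 dishes per condition) for the 30 genes, grouped and coloured as regulators and carrier, sterol enzymes and fatty acid enzymes. Filled points are the 4 genes whose dishes did not overlap on the deposited values, the dashed line is the median of all tested genes (0.03), and after either other scaling Lss and Tm7sf2 are the genes wholly below and only 1 gene is wholly above.

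The regulators and the carrier were all slightly higher on average after exposure, without passing the test. All 6 fold changes were positive, from 0.03 to 0.16 with a median of 0.06, except that Insig1 turned to -0.001 after median-of-ratios scaling and -0.002 after rescaling. The median of the 6 was 0.035 under both other scalings. In 2 of the 6, Srebf2 and Stard4, every ELF-WMF dish was higher than every control dish, beside 8.01% of all tested genes. This held for 1 of the 6 after median-of-ratios scaling, beside 3.80% of all tested genes, and for 0 of the 6 after rescaling, beside 3.83%.

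Srebf2 (ENSMUSG00000022463, chr15:82147181-82205379) encodes SREBP-2, the regulator of cholesterol synthesis. It was at 143, 144, 142 and 145 TPM in the control dishes and at 146, 156, 153 and 149 TPM in the ELF-WMF dishes. Every ELF-WMF dish was higher than every control dish, but the lowest ELF-WMF dish, replicate 1, was within 1 TPM of the highest control dish. The means were 144 ± 1.3 and 151 ± 4.7 TPM (SD, n = 4 culture dishes each), a log2 fold change of 0.07 (standard error 0.03, limma adjusted p = 0.247). It was 0.04 after either other scaling, and under rescaling the conditions overlapped.

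Srebf1 (ENSMUSG00000020538, chr11:60199089-60222581), which encodes SREBP-1, was at 82.8, 78.0, 93.2 and 86.3 TPM in the control dishes and at 84.0, 91.7, 87.8 and 89.3 TPM in the ELF-WMF dishes. The conditions overlapped fully, with the highest and the lowest value both among the controls. The log2 fold change was 0.05 (standard error 0.05, limma adjusted p = 0.676), with 0.02 under both other scalings and 0.01 to 0.10 with 1 dish left out. The tables hold 1 value for the gene, so its SREBP-1a and SREBP-1c transcripts were not separated. Srebf2 was the more abundant of the pair in every dish, by a ratio of 1.53 to 1.85 in the control dishes and 1.67 to 1.75 in the ELF-WMF dishes.

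Scap (ENSMUSG00000032485, chr9:110333288-110384950), the sterol-sensing escort, was at 42.0, 43.0, 47.8 and 45.2 TPM in the control dishes and at 41.5, 49.4, 49.4 and 45.6 TPM in the ELF-WMF dishes. The lowest dish of all was ELF-WMF replicate 1, so the conditions overlapped (log2 fold change 0.06, standard error 0.06, limma adjusted p = 0.695). Its fold change was 0.03 under both other scalings and 0.03 to 0.11 with 1 dish left out. Insig1 (ENSMUSG00000045294, chr5:28071363-28078662), the retention protein that is itself an SREBP target, was at 43.6, 45.3, 46.7 and 45.5 TPM in the control dishes. It was at 44.1, 45.2, 47.8 and 47.6 TPM in the ELF-WMF dishes, again with overlap (log2 fold change 0.03, standard error 0.04, limma adjusted p = 0.775). Its 95% confidence interval ran from -0.05 to 0.11, and with 1 dish left out the fold change was 0.01 to 0.05.

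Insig2, the second retention protein, was the least steady of the 30 genes. It was at 39.8, 30.01, 32.0 and 39.9 TPM in the control dishes and at 37.7, 42.9, 52.0 and 28.4 TPM in the ELF-WMF dishes. Both the highest and the lowest value belonged to ELF-WMF dishes, replicates 3 and 4. The coefficient of variation was 14.6% among control dishes and 24.5% among ELF-WMF dishes, and its mean of both, 19.5%, compares with a median of 4.28% over the 30 genes and 3.77% over the 5310 tested genes in the same range of TPM. The log2 fold change of 0.16 was the highest of the 30 genes and had the widest interval (limma adjusted p = 0.699). It was 0.13 under both other scalings, 0.03 without ELF-WMF replicate 3 and 0.31 without ELF-WMF replicate 4.

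Stard4 (ENSMUSG00000024378), a cytosolic carrier of cholesterol, was among the steadiest. It was at 48.7, 48.6, 49.4 and 50.6 TPM in the control dishes and at 51.5, 52.0, 52.5 and 51.0 TPM in the ELF-WMF dishes. The conditions were separated by less than 1 TPM, between control replicate 4 and ELF-WMF replicate 4. The log2 fold change was 0.07 (standard error 0.03, limma adjusted p = 0.269), and 0.04 after either other scaling, where the conditions overlapped.

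**Figure D3:**
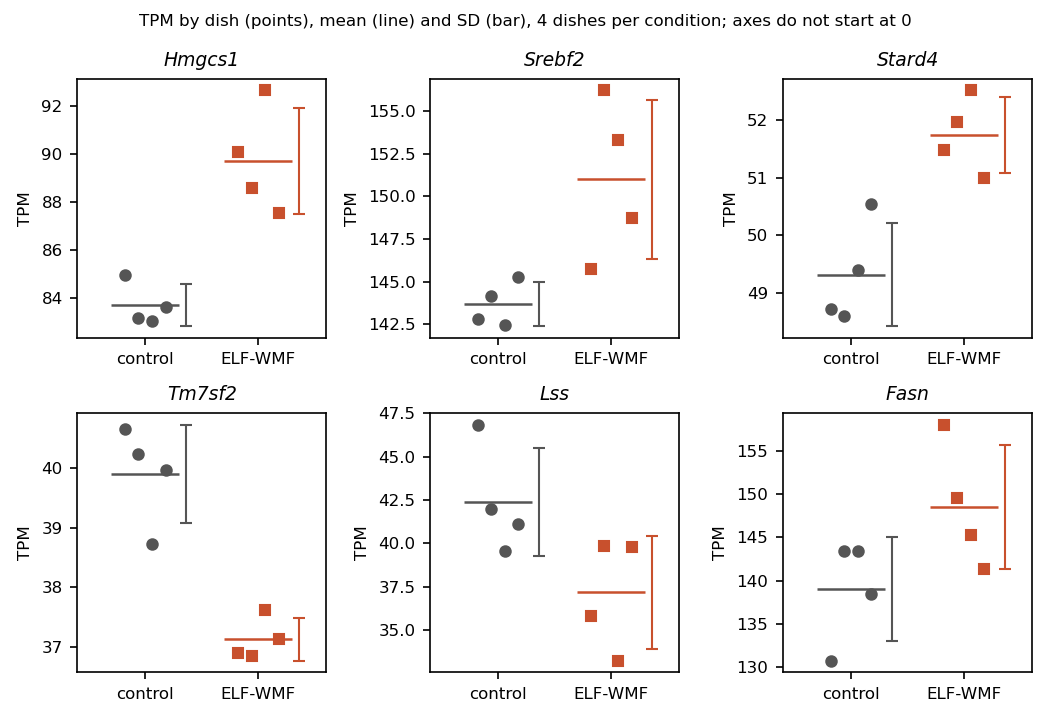
TPM in each of the 4 control dishes (grey circles) and 4 ELF-WMF dishes (orange squares) for the 4 genes whose conditions did not overlap (Hmgcs1, Srebf2, Stard4 and Tm7sf2) and for Lss and Fasn, with the mean as a line and the SD as a bar. The axes do not start at 0, and the means of Hmgcs1, 83.7 and 89.7 TPM, differ by 7.20%. Under either other scaling Stard4 overlaps and Lss does not.

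The enzymes of sterol synthesis pointed in both directions. Of 18 genes, 12 had a positive and 6 a negative fold change, with a median of 0.05 that became 0.02 under both other scalings. The first steps, from acetyl units through mevalonate to farnesyl diphosphate, had a median of 0.05 over 7 genes with 6 positive. The 9 enzymes that act after squalene, from lanosterol synthase (Lss) onward, had a median of -0.01 with 4 positive and 5 negative. Under both other scalings these medians were 0.02 and -0.04. With 1 dish left out the first ranged from 0.03 to 0.07 and the second from -0.04 to 0.04. The second turned positive without control replicate 3 (0.04), control replicate 4 (0.04), ELF-WMF replicate 1 (0.02) or ELF-WMF replicate 3 (0.004). This difference between the steps was not tested.

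Hmgcs1 (ENSMUSG00000093930, chr13:119690379-119708260) encodes the cytosolic HMG-CoA synthase, which makes the precursor of mevalonate. It was at 84.9, 83.2, 83.0 and 83.6 TPM in the control dishes and at 90.1, 88.6, 92.7 and 87.5 TPM in the ELF-WMF dishes. All 4 ELF-WMF dishes were higher than all control dishes, with replicate 3 the highest. The means were 83.7 ± 0.87 and 89.7 ± 2.2 TPM (SD, n = 4 culture dishes each), and the log2 fold change was 0.10 (standard error 0.03, limma adjusted p = 0.142). It stayed positive at 0.07 under both other scalings, although the conditions then overlapped after median-of-ratios scaling (limma adjusted p = 0.405).

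The other 6 enzymes of the mevalonate route overlapped between conditions. Acat2, which joins acetyl units, Mvk, Mvd and Idi1, which phosphorylate, decarboxylate and isomerise the intermediates, and Fdps, which makes farnesyl diphosphate, had log2 fold changes of 0.04 to 0.05, and Pmvk, the second kinase, had -0.001. Under both other scalings these were 0.01 to 0.02 and -0.03, and with 1 dish left out 0.01 to 0.08 and -0.03 to 0.04. The summed level of these genes with Hmgcs1 was 634, 623, 627 and 653 TPM in the control dishes and 669, 666, 669 and 626 TPM in the ELF-WMF dishes. ELF-WMF replicates 1 to 3 were above all control dishes, and replicate 4 was among them.

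Fdft1 joins farnesyl diphosphate into squalene and had a log2 fold change of 0.06, at a mean of 61.6 TPM, with 0.03 under both other scalings and 0.03 to 0.08 with 1 dish left out. Sqle (ENSMUSG00000022351, chr15:59315077-59331192), the epoxidase that commits squalene to sterols and a well-known SREBP-2 target, was at 113, 116, 111 and 114 TPM in the control dishes and at 112, 118, 115 and 110.3 TPM in the ELF-WMF dishes. The highest and the lowest dish were both ELF-WMF dishes. The log2 fold change was 0.002 (standard error 0.03, 95% confidence interval -0.06 to 0.06, limma adjusted p = 0.986), and it turned to -0.03 under both other scalings and ran from -0.01 to 0.02 with 1 dish left out.

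Among the later enzymes, Tm7sf2 and Lss had lower means after exposure, without passing the test. Tm7sf2 (ENSMUSG00000024799, chr19:6062821-6068373), a sterol reductase, was at 40.7, 40.2, 38.7 and 39.97 TPM in the control dishes and at 36.9, 36.8, 37.6 and 37.1 TPM in the ELF-WMF dishes. The control dishes were all higher, and the coefficient of variation, averaged over both conditions, was 1.52%, the smallest of the 30 genes. The means were 39.9 ± 0.83 and 37.1 ± 0.36 TPM (SD, n = 4 culture dishes each), a log2 fold change of -0.10 (standard error 0.03, limma adjusted p = 0.16) that was -0.13 under both other scalings. Tm7sf2 shares annotated exons with Vps51 on the same strand, so its value is uncertain. Vps51 was at a mean of 40.4 TPM in control and 41.0 TPM in ELF-WMF dishes (log2 fold change 0.02, and -0.005 under both other scalings).

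Lss encodes lanosterol synthase, which closes the sterol rings. It was at 46.8, 42.0, 39.6 and 41.1 TPM in the control dishes and at 35.8, 39.9, 33.2 and 39.8 TPM in the ELF-WMF dishes. All but 1 of the control dishes lay above the ELF-WMF dishes, the exception being replicate 3. The log2 fold change of -0.19 was the lowest of the 30 genes (standard error 0.07, limma adjusted p = 0.231). It was -0.21 under both other scalings, where the conditions did not overlap.

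The remaining later enzymes overlapped between conditions. Cyp51, Msmo1, Nsdhl and Ebp had log2 fold changes of 0.06 to 0.07, and Hsd17b7, Sc5d and Dhcr7 had -0.03 to -0.01. Under both other scalings these were 0.03 to 0.04 and -0.06 to -0.04, and with 1 dish left out 0.02 to 0.10 and -0.05 to 0.04. Cyp51 removes a methyl group of lanosterol, Msmo1, Nsdhl and Hsd17b7 act together in removing the others, Ebp shifts a double bond, and Sc5d and Dhcr7 finish the ring. Hsd17b7 had the largest coefficient of variation after Insig2, at 9.56%, with control dishes at 24.7, 24.9, 29.9 and 30.2 TPM.

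A ratio of genes within a dish does not depend on how the dish was scaled. Hmgcs1 to Tm7sf2, a pair chosen after the values had been seen, was 2.09, 2.07, 2.14 and 2.09 in the control dishes and 2.44, 2.40, 2.46 and 2.36 in the ELF-WMF dishes. The ratio of Hmgcs1 to Lss, chosen likewise, was 1.81, 1.98, 2.10 and 2.03 in the control dishes and 2.52, 2.22, 2.79 and 2.20 in the ELF-WMF dishes. In both ratios every ELF-WMF dish was higher. Because the genes were picked for opposite differences, this is a description and no test was made.

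The enzymes of fatty acid synthesis overlapped between conditions in all 6 genes. The 6 fold changes were positive on the deposited values, with a median of 0.03, but Scd1 and Scd2 turned negative under both other scalings and Acly after rescaling, and the median was then 0.005 after median-of-ratios scaling and 0.004 after rescaling. Without ELF-WMF replicate 2 the median was 0.001 with 3 of the 6 positive, and without ELF-WMF replicate 1 it was 0.06. Scd2 alone held 61.6% to 63.3% of the summed TPM of the 6 enzymes in every dish.

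Fasn (ENSMUSG00000025153, chr11:120805846-120824547), the synthase that builds palmitate, was at 131, 143, 143 and 138 TPM in the control dishes and at 158, 149.6, 145 and 141 TPM in the ELF-WMF dishes. ELF-WMF replicates 1 to 3 were above all controls and replicate 4 was within them. The means were 139 ± 6.0 and 149 ± 7.1 TPM (SD, n = 4 culture dishes each), a log2 fold change of 0.09 (standard error 0.04, limma adjusted p = 0.311), and 0.07 or 0.06 under the other scalings.

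Acaca (ENSMUSG00000020532, chr11:84129672-84401651), the carboxylase that makes malonyl-CoA, was at 63.4, 59.7, 65.2 and 66.0 TPM in the control dishes and at 60.03, 69.8, 63.8 and 69.6 TPM in the ELF-WMF dishes. The values interleaved (log2 fold change 0.05, standard error 0.05, limma adjusted p = 0.723), and the fold change was 0.02 under both other scalings and 0.02 to 0.09 with 1 dish left out. Acly, which makes cytosolic acetyl-CoA from citrate, and Elovl6, which lengthens palmitate, had log2 fold changes of 0.03 and 0.04. Acly was near 0 and Elovl6 at 0.01 under both other scalings, and with 1 dish left out they ran from -0.001 to 0.06 and from -0.005 to 0.08.

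The desaturases Scd1 and Scd2 insert the double bond that makes oleate. Scd1 (ENSMUSG00000037071, chr19:44394455-44407879) was at 82.6, 78.2, 75.2 and 78.8 TPM in the control dishes and at 72.7, 84.3, 79.3 and 79.3 TPM in the ELF-WMF dishes, with the lowest and the highest value in ELF-WMF replicates 1 and 2. Its log2 fold change was 0.003 (standard error 0.05, limma adjusted p = 0.985), with -0.03 under both other scalings and -0.03 to 0.04 with 1 dish left out. Scd2 (ENSMUSG00000025203, chr19:44293674-44306864) was at 732, 744, 749 and 762 TPM in the control dishes and at 717, 788, 785 and 744 TPM in the ELF-WMF dishes. Here too ELF-WMF replicate 1 was the lowest and replicate 2 the highest, and the log2 fold change was 0.02 (standard error 0.03, limma adjusted p = 0.814), with -0.01 under both other scalings and 0.002 to 0.05 with 1 dish left out. Scd2 exceeded Scd1 by a ratio of 8.87 to 9.97 in every dish. The transcripts of the pair are 95.5% identical over 623 bases, so reads can be shared between them.

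Part of the spread followed single dishes and not the condition. Of the 30 genes, 14 had their highest value in ELF-WMF replicate 2, beside 27.1% of all tested genes. In the fatty acid enzymes this dish was the highest for 5 of 6 genes, and ELF-WMF replicate 1 was the lowest for 4 of 6, beside 19.8% of all tested genes. The median deviation of the 6 enzymes from their 8-dish mean was -0.10 in ELF-WMF replicate 1 and 0.10 in replicate 2 on the log2 scale, while all tested genes had medians of -0.01 and 0.04. The sterol enzymes had 0.02 and 0.06 in the same dishes.

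**Figure D4:**
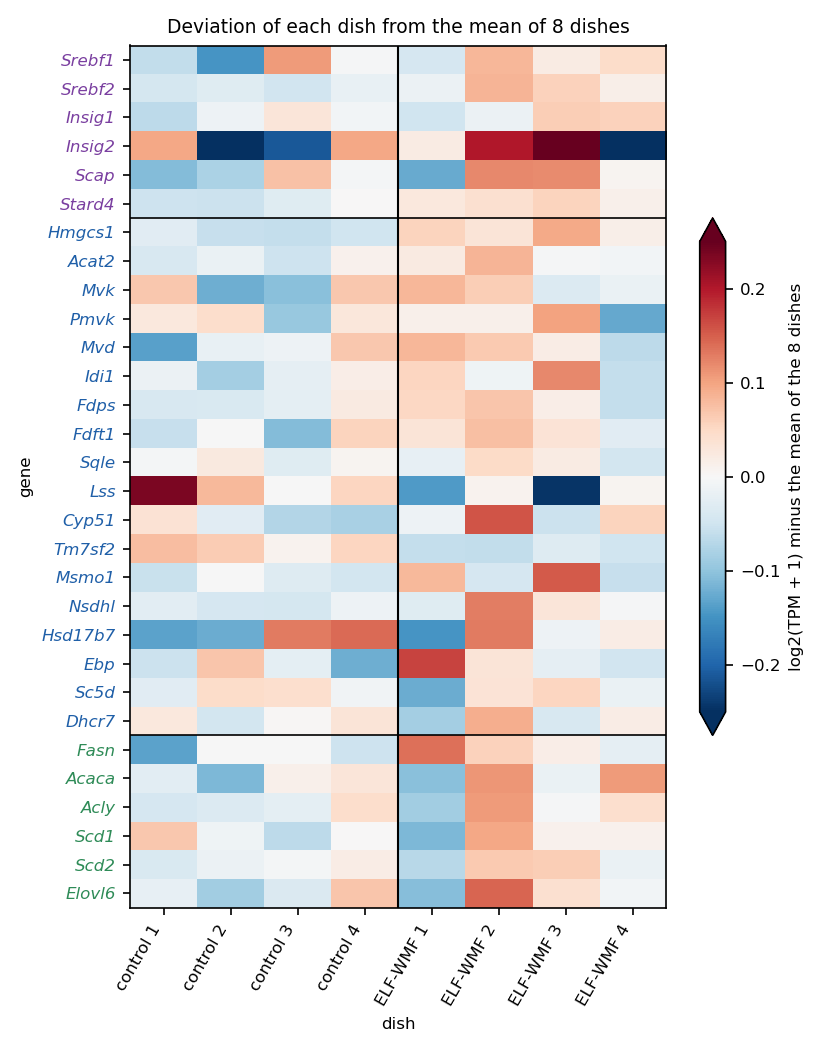
Deviation of log2(TPM + 1) in each dish from the mean of the 8 dishes for the 30 genes, with blue below and red above the mean and colours held at the ends of the scale beyond 0.25 in size. The fatty acid enzymes other than Fasn are below their mean in ELF-WMF replicate 1 (median of all 6 genes -0.10) and above it in replicate 2 (0.10), and Insig2 varies most.

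Several of the 30 values can share reads with other genes. The library kit keeps strand, but whether the counting used it is not given in the sources used here, so genes that overlap on opposite strands are uncertain too. Those with a partner above 1 TPM are Fdft1 with Ctsb (mean 285 TPM), Cyp51 with Akap9 (19.3 TPM) and Srebf1 with Rai1 (32.5 TPM). The opposite-strand partners of Hmgcs1, Idi1, Lss, Scap and Elovl6 had at most 0.568 TPM. Acat2 does not overlap Tcp1 (444 TPM), but their transcripts are 98.7% identical over 445 bases. Ctsb and Tcp1 were higher in every ELF-WMF dish, with log2 fold changes of 0.10 and 0.09, beside 0.06 for Fdft1 and 0.05 for Acat2. Under both other scalings, tried for them after their values had been seen, Ctsb had 0.07 and stayed separate, while Tcp1 had 0.06 and overlapped. Acat2 is also 97.7% identical to Acat3 over 1477 bases, but Acat3 was at a mean of 1.16 TPM. Copies of Idi1, Fdps, Acaca, Elovl6, Fdft1 and Scd1 that are mostly processed pseudogenes had at most 2.40 TPM.

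Other genes of sterol handling, 26 in a list, were mostly tested as well. Of these, 24 were tested, 0 passed the threshold by limma in either direction, and 0 higher and 1 lower had an unadjusted p under 0.05, or 0% and 4.17% beside 12% and 3.65% of all tested genes. The median log2 fold change was 0.04, with 18 positive and 6 negative, and 0.01 under both other scalings, with 16 positive and 8 negative. Por, the reductase that hands electrons to Cyp51, was the only gene of this list (4.17% beside 8.01% of all tested genes) that was higher in every ELF-WMF dish (99.1 ± 0.88 and 103 ± 2.7 TPM, SD, n = 4 culture dishes each), a log2 fold change of 0.05 (limma adjusted p = 0.366), and this separation was lost under both other scalings. Cyb5r3, a reductase of the same electron supply, had 0.05 (limma adjusted p = 0.366). Both genes had 0.02 under the other scalings. On the lower side Cyp27a1, which makes 27-hydroxycholesterol, was at 12.3, 13.6, 12.8 and 10.8 TPM in the control dishes and at 10.3, 11.2, 10.3 and 11.0 TPM in the ELF-WMF dishes. Control replicate 4 lay among the ELF-WMF dishes (log2 fold change -0.19, or -0.22 under both other scalings, limma adjusted p = 0.216). Rnf145, a ubiquitin ligase of the sterol response, had -0.08 (limma adjusted p = 0.585), with -0.11 under both other scalings and -0.14 to -0.05 with 1 dish left out. Abcg1 was listed at 0 in every dish and Mylip was below the limit for testing.

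In the list of 26 other fatty acid genes, 22 were tested, 0 passed the threshold by limma, and 5 higher and 1 lower had an unadjusted p under 0.05, or 22.7% and 4.55% beside 12% and 3.65% of all tested genes. Under either other scaling 5 of the 22 had such a p by limma, beside 1428 of 12122 tested genes after median-of-ratios scaling and 1368 of 12107 after rescaling. Hsd17b12 and Me1 were among the higher of these, and Mlxipl and Mid1 among the lower. The median log2 fold change of the list was 0.03, or 0.004 under both other scalings. Mlxipl encodes ChREBP, the glucose-responsive activator of lipogenic genes. It was at 13.5, 13.3, 13.6 and 13.5 TPM in the control dishes and at 11.1, 11.7, 11.4 and 11.8 TPM in the ELF-WMF dishes. Every ELF-WMF dish was lower, with a gap wider than the spread within either condition. The log2 fold change was -0.21 (standard error 0.04, limma adjusted p = 0.122), and -0.24 under both other scalings.

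On the higher side of this list, the dishes did not overlap for Hsd17b12, Me1 and Elovl1, or 13.6% of the 22 tested genes beside 8.01% of all tested genes. Hsd17b12, a reductase of the elongation cycle, was at 139 ± 3.2 TPM in control and 150.2 ± 3.7 TPM in ELF-WMF dishes (SD, n = 4 culture dishes each), a log2 fold change of 0.11 (limma adjusted p = 0.129). Me1, the malic enzyme that supplies NADPH, was at 296 ± 4.3 and 317 ± 8.1 TPM (SD, n = 4 culture dishes each), a log2 fold change of 0.10 (limma adjusted p = 0.139). Under both other scalings these fold changes were 0.09 and 0.07, and Hsd17b12 was the only higher gene of this list that stayed separate. Mid1, which binds microtubules and does not itself make fatty acids, had a log2 fold change of -0.09 (limma adjusted p = 0.382) with overlap. It was -0.12 under both other scalings, where every ELF-WMF dish lay below every control dish (limma adjusted p = 0.309 after median-of-ratios scaling and 0.368 after rescaling). Acacb, Thrsp, Elovl2 and Elovl3 were below the limit for testing, and the last pair was listed at 0 in every dish.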

How the data were processed

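RNA from 4 control and 4 ELF-WMF dishes was sequenced by the authors from stranded mRNA libraries. For each dish the authors deposited TPM values of 55401 genes. The submitters' processing notes name Trimmomatic 0.39, STAR 2.7.4a, RSEM 1.3.3 and the mm10 build. The annotation release and the strand setting of the counting are not given in the sources used here. TPM keeps no depth, so depth is unknown.

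Genes that reached 1 TPM in 4 or more dishes were compared on log2(TPM + 1) by a linear model with trended empirical Bayes moderation (limma 3.58.1, R 4.3.3). P-values of the 12122 genes were adjusted by Benjamini-Hochberg, with a threshold of 0.05. Confidence intervals are limma's, at 95%. The code was tested on simulated data. Lists were described by counts and medians, without a test. Gene positions and exons were taken from GENCODE M21 (GRCm38), in which 55141 of the gene identifiers were found. Transcript copies were searched with BLAST 2.17.0, at an identity of at least 90% over at least 300 aligned bases. Promoters came from RefSeq (GRCm38.p6).

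Per-dish values are given for genes of the 30 whose conditions did not overlap and, whatever their values, for Srebf1, Srebf2, Insig1, Scap, Hmgcs1, Sqle, Fasn, Acaca, Scd1 and Scd2. The other genes of the 30 are summarised, and from each list of other pathway genes the 2 tested genes with the smallest unadjusted p in each direction are named. The per-dish values of Insig2, Lss and Hsd17b7, and Elovl1, Mylip, Abcg1, Acacb, Thrsp, Elovl2, Elovl3 and the genes sharing reads, were added after their values were seen. The members and lists were chosen with earlier results of these data known. Alternatives were a pseudocount of 0.1, looser and stricter filters, other scalings, a replicate block, and omission of single dishes.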

Additional observations from a re-analysis of the deposited data

Results flagged for a closer look

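Dixon's criterion at its 95% critical value was applied to 76 groups of 4 dishes, and it found a dish far from the rest in 2 of them. Chance gives this in about 1 in 20 groups, or 3.8 of 76. Pmvk was at 30.3 TPM in control replicate 3, against 33.0 to 33.4 TPM in the other control dishes. Me1 was at 305 TPM in ELF-WMF replicate 4, against 320 to 323 TPM in the other ELF-WMF dishes.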

How the results depend on the processing

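Over 14 alternative fits of 38 named genes, 505 of 532 fold changes kept their direction and stayed above the threshold for the adjusted p, and 27 reversed. All 27 belonged to 10 genes whose log2 fold change was at most 0.0372 in size. The smallest adjusted p of a named gene in any of these fits was 0.109. Under median-of-ratios scaling Sqle became -0.0272, Scd1 -0.0257, Scd2 -0.0084 and Insig1 -0.00115. Under rescaling without mitochondrial genes Sqle became -0.0276, Scd1 -0.0261, Scd2 -0.00878, Insig1 -0.00153 and Acly -8.23e-05. Vps51, which shares exons with Tm7sf2, became -0.0049 and -0.0053 under these scalings, tried for it after seeing the data. Both shift nearly all genes alike. With each dish left out in turn the range was -0.0349 to 0.0413 for Pmvk, -0.014 to 0.0172 for Sqle, -0.0525 to 0.0417 for Hsd17b7, -0.0484 to 0.0113 for Sc5d, -0.0396 to 0.0193 for Dhcr7, -0.0285 to 0.0415 for Scd1, -0.00111 to 0.0634 for Acly and -0.00536 to 0.0789 for Elovl6. The cause was not tested.

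The number of genes past the threshold was 1 with TPM of at least 1 in every dish and 1 under median-of-ratios scaling, and 0 to 2 with 1 dish left out. The genes of the 30 that did not overlap numbered 1 higher and 2 lower under either other scaling, and with 1 dish left out 3 to 4 and 1 to 2. Of all tested genes 3.80% were higher and 3.82% lower under median-of-ratios scaling, 3.83% and 3.25% under rescaling, and 9.06% to 13.4% and 2.48% to 4.03% with 1 dish left out. In the other sterol list the numbers became 0 higher under either scaling, and 1 to 3 higher and 0 to 2 lower with 1 dish left out. In the other fatty acid list they became 1 higher and 4 lower under median-of-ratios scaling, 1 higher and 2 lower under rescaling, and 3 to 6 higher and 1 to 2 lower with 1 dish left out. The median log2 fold change of the sterol enzymes became 0.0188 and 0.0185 under these scalings, and that of the other fatty acid genes 0.0041 and 0.0037. Leaving out 1 dish gave ranges of 0.0303 to 0.0609 for the 30 genes, 0.0296 to 0.0625 for sterol enzymes, 0.0429 to 0.082 for regulators and carrier, 0.0006 to 0.064 for fatty acid enzymes, 0.0265 to 0.0442 for other sterol genes and 0.021 to 0.0516 for other fatty acid genes.

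The dishes share only a replicate number. Same-numbered dishes had correlations of deviations of -0.0348, -0.0419, 0.000369 and 0.0258, and no control dish correlated best with the ELF-WMF dish of its own number. With the replicate block 0 genes passed the threshold and the median of the 30 genes was 0.0485. Depth is unknown, and 4 dishes of 1 batch per condition limit the precision.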
